A study of Mus musculus with 5 samples.

Results

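Genes of the serine/threonine protein phosphatases with Ppp symbols were examined for binding sites of EBF1, a DNA-binding factor that B-lineage cells depend on. Members were chosen by symbol: protein-coding genes of the RefSeq annotation of GRCm38 whose symbol starts with Ppp and a digit, 77 of 21521 coding genes. Sites were selected on position. A site belonged to a gene that held its centre, or otherwise to the nearest coding gene within 100 kb. The family was picked with the site counts of these data in view, so its count of genes with a site is a description and was not tested. Of the 5 libraries in the series, 1 is used here, an EBF1 ChIP-seq (sequencing of DNA pulled down with an antibody against EBF1) of pro-B cells, early cells of the B lineage. The cells were Ebf1-/- fetal liver cells into which wild-type EBF1 had been brought by transduction, so by these labels the EBF1 in them came from the transduced gene. The other libraries, inputs, BRG1 ChIP-seq and cells with the YmA form of EBF1, share the Ebf1-/- background and were not analysed here. The deposited list holds 7494 sites of 300 bp on 20 chromosomes, each with 1 of 3 class names, YmA-dep, YmA-ind or CTD-ind. The sources used here do not define the classes. The list has no score or read count, so the depth and strength of a site are unknown, and absence from the list is no measure of absent binding. The list carries no RNA level, so neither the effect of a site on its gene nor the identity of the cells could be checked.

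Phosphatases of this family remove phosphate from serine and threonine in proteins. A small set of catalytic subunits does the chemistry, and a large set of regulatory subunits binds them and decides where they act and on which substrates. PP1 works with many targeting and inhibitor proteins. PP2A is built from a scaffold, a catalytic and a variable B subunit. Calcineurin is switched on by calcium and calmodulin downstream of antigen receptors, where it dephosphorylates NFAT factors. By symbol, 11 members encode catalytic and 65 regulatory or interacting subunits. The remaining member, Ppp1ccb, is a short gene named after the catalytic gene Ppp1cc and is kept apart.

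The EBF1 sites that fell on the promoters of the family are shown first, since they are where a site and a listed gene start coincide. RefSeq promoter windows of GRCm38, from 250 bp before to 50 bp after a listed start, were at hand for 61 of the 77 genes (74 windows). In 5 windows of 4 genes lay the centre of an EBF1 site: Ppp1r16b, which encodes the PP1 targeting subunit TIMAP, Ppp1cb, which encodes the beta catalytic subunit of PP1, Ppp1r8, which encodes the nuclear inhibitor NIPP1, and Ppp1r18, which encodes the actin-associated phostensin. The 4 windows below are printed 5′ to 3′ on the strand of the gene. They lie at chr2:158666885-158667184 (plus strand), chr5:32458720-32459019 (plus), chr4:132843085-132843384 (minus) and chr17:35866365-35866664 (plus). Capitals mark matches to CCCNNGGG, the core of the palindromic EBF motif, and to its longer form TCCCNNGGGA, which contains the core. Both read the same on the 2 strands.
Ppp1r16b: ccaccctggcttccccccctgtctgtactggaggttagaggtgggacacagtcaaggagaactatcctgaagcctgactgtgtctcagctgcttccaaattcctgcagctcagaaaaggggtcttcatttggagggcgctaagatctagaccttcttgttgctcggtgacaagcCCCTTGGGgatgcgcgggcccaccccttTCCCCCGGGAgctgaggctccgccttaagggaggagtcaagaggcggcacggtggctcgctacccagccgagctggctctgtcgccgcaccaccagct
Ppp1cb: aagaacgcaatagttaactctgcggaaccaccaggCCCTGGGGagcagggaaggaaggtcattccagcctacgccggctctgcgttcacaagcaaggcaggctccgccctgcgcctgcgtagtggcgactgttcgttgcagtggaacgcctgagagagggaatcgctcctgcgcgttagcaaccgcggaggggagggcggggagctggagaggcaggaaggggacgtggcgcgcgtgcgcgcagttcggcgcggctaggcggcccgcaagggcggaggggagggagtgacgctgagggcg
Ppp1r8: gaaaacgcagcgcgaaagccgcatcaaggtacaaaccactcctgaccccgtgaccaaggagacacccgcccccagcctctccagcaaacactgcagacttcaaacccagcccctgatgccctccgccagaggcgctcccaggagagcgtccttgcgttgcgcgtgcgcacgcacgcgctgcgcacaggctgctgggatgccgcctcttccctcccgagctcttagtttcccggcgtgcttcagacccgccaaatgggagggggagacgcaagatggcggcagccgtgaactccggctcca
Ppp1r18: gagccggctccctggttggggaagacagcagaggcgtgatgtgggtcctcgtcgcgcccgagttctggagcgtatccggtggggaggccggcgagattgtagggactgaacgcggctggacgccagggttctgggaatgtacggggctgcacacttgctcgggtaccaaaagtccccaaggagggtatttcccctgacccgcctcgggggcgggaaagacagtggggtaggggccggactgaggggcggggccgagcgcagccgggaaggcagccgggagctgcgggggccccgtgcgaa

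The Ppp1r16b window held the longer motif as TCCCCCGGGA, on chromosome 2 at 158667087 to 158667096. Its middle lay 14 bp from the centre of the CTD-ind site and its first base 48 bp before the listed start. A separate core match stood upstream of it in the same window. The Ppp1cb window held 1 core match, CCCTGGGG, on chromosome 5 at 32458755 to 32458762, 22 bp from the centre of a CTD-ind site. The printed windows of Ppp1r8 and Ppp1r18 held no match, which says only that these letters are not in them. Another window of Ppp1r18, without a site centre, held a core match. Among all 21045 coding promoter windows, 15.8% held the core and 0.965% the longer form. Of the 378 windows with a site centre, 57.7% held the core and 15.9% the longer form. The mirrored letters GGGNNCCC, of equal base composition, were in 13.6% of all windows and 19.3% of those with a site centre. Windows with a site centre were also richer in G and C (median 62.2%, against 56.7% in all windows). The Ppp windows, with a median of 63.0%, held the core in 13 of 74 cases (17.6%), and 11 of these 13 windows had no site centre.

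Of the 77 Ppp genes, 26 (33.8%) had at least 1 site, and together they had 40 sites. The background was 19.8% of all coding genes and 21.5% of coding genes of like span, taken as the 100 other coding genes nearest in span to each member. With a single site stood 19 members, 4 had 2 sites and 3 had 3 or more: Ppp1cb and Ppp1r16b with 5 each and Ppp2r5a with 3. Of all coding genes, 3.02% had 3 or more sites, and of those of like span 3.55%. No site was shared between members. The farthest site that counted lay 72.3 kb outside its gene, Ppp1r12a, and without a limit on the distance no further site was added.

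**Figure D1:**
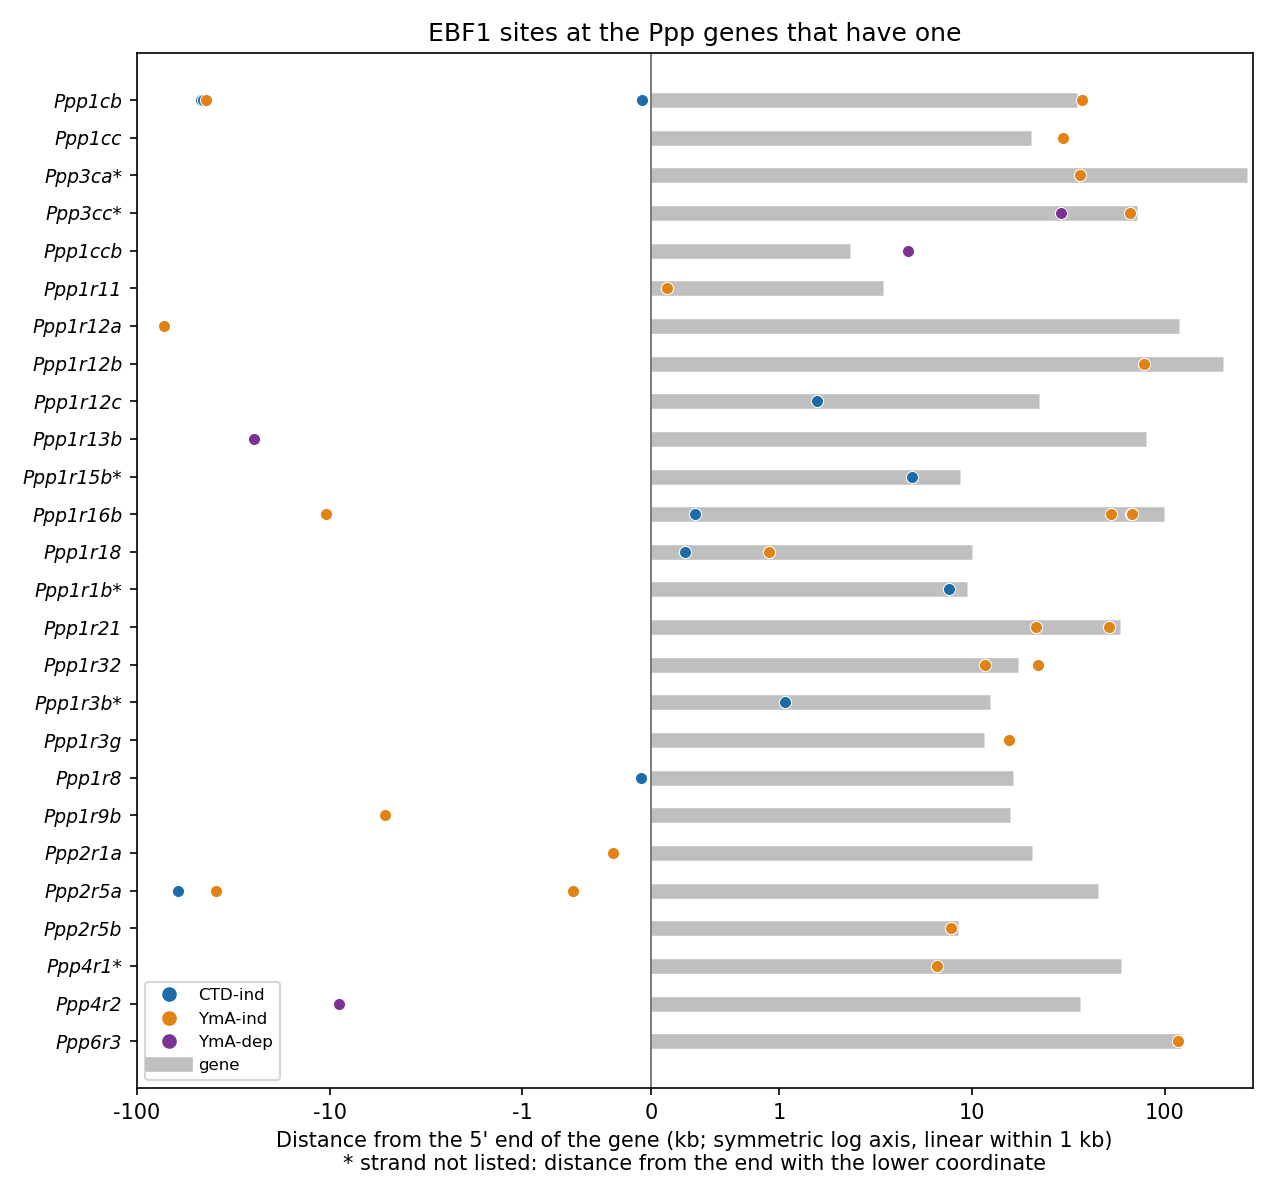
EBF1 sites (points, coloured by class) at the 26 Ppp genes that have a site, 1 gene per row. The x axis is the distance from the 5' end of the gene in kb on a symmetric log scale, and grey bars are the genes. For the 6 genes marked with an asterisk no strand was listed, and the distance is from the end with the lower coordinate; the largest counts, 5 sites each, are at Ppp1cb and Ppp1r16b.

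Among the 11 catalytic genes, 4 had a site: Ppp1cb, Ppp1cc, Ppp3ca and Ppp3cc. That is 36.4%, against 23.8% of coding genes of the same span. Ppp1cb had 5 sites on chromosome 5. A CTD-ind site at 32458632 to 32458931 was centred 67 bp outside the gene and 189 bp before the listed start. A run of 3 sites lay far upstream: CTD-ind sites at 32412504 to 32412803 and 32413083 to 32413382, and a YmA-ind site at 32414814 to 32415113, centred 46.2, 45.6 and 43.9 kb from the gene. These 3 were only slightly nearer to Ppp1cb than to the gene on the other side, Plb1, which was 48.3, 48.9 and 50.6 kb away. The last, a YmA-ind site at 32496009 to 32496308, was 2.44 kb downstream. Ppp1cb thus had 3 of the 11 CTD-ind sites of the family, and 2 of its 5 sites lay within 20 kb of the gene.

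Ppp1cc, the gene of the gamma catalytic subunit of PP1, had a YmA-ind site 9.37 kb downstream (chromosome 5, 122184495 to 122184794). The gene Gm52787 was 11.1 kb from that site. Ppp1ca, the gene of the alpha subunit, was assigned none. It spans 3.25 kb on chromosome 19 in a dense stretch of genes, and 3 sites lay within 10 kb of it. A CTD-ind site at 4196549 to 4196848 was 1.28 kb away, inside Rad9a. YmA-ind sites at 4189161 to 4189460 and 4184989 to 4185288 were 2.86 and 7.04 kb away, both inside Tbc1d10c. Ppp1ccb on chromosome 7 had a YmA-dep site 2.33 kb downstream (119744424 to 119744723), which also lay in the pseudogene Gm19963.

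The calcineurin A genes Ppp3ca and Ppp3cc carried their sites inside the gene. The shares at like span were 35% for Ppp3ca, 33% for Ppp3cc and 21% for Ppp3cb. Ppp3ca, which spans 268.0 kb on chromosome 3, had a YmA-ind site (136706082 to 136706381) 36.5 kb from its nearer end. Ppp3cc on chromosome 14 had a YmA-dep site (70246585 to 70246884) 28.9 kb from an end and a YmA-ind site (70283850 to 70284149) 5.54 kb from the other. Ppp3cb, the third calcineurin A gene, had no site, and the nearest was 94.3 kb away, assigned to Usp54. The calcineurin B genes Ppp3r1 and Ppp3r2 had none (16.5% at like span), with the nearest sites at 176.0 and 393.0 kb.

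The catalytic genes of the PP2A-like phosphatases were all without an assigned site. The shares at like span were 24% for Ppp2ca and Ppp2cb, 15% for Ppp4c and 31% for Ppp6c, so most genes of such spans had none. For Ppp2ca and Ppp2cb, which encode the 2 nearly identical PP2A catalytic subunits, the nearest site was 22.4 kb away in each case, CTD-ind, and assigned to Cdkl3 and Ubxn8. For Ppp4c it was 39.6 kb away and for Ppp6c 174.0 kb. For Ppp5c, the gene of PP5, the nearest site was a CTD-ind site at 80.9 kb, assigned to the calmodulin gene Calm3.

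**Figure D2:**
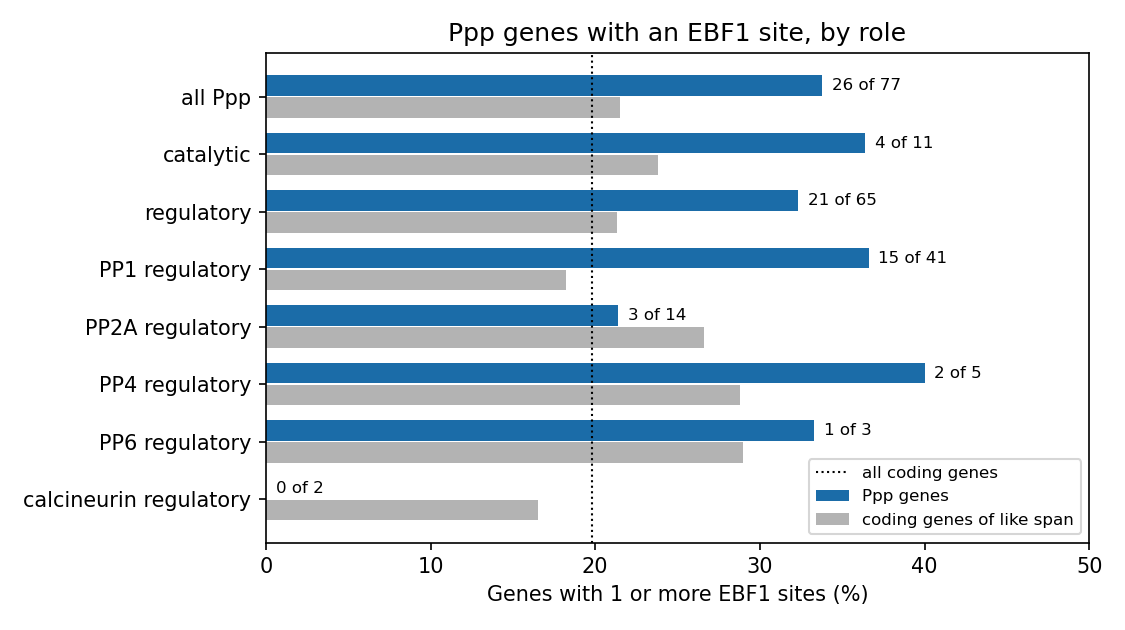
Percentage of Ppp genes with 1 or more EBF1 sites (blue, with counts) beside coding genes of like span (grey), by role; the dotted line marks all coding genes (19.8%). PP2A regulatory genes (3 of 14) and calcineurin regulatory genes (0 of 2) lie below genes of like span.

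Among the 65 regulatory genes, 21 had a site (32.3%, against 21.3% of coding genes of like span), with 30 sites in all. The share in the catalytic genes was 4.06 percentage points higher, and this difference depended on the assignment: it was 10.1 points when any gene within 10 kb of a site counted, 7.13 points with a limit of 20 kb and 2.52 points with whole intervals. Catalytic genes had 0.818 sites per gene and regulatory genes 0.462, and 5 of the 9 catalytic sites belonged to Ppp1cb.

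PP1 regulatory genes held 22 of the 40 sites, at 15 of 41 genes (36.6%, against 18.2% at like span). The 3 genes of the Ppp1r12 stem, which encode myosin phosphatase targeting subunits that bring PP1 to myosin, had 1 site each. The shares at like span were 28% for Ppp1r12a, 39% for Ppp1r12b and 19% for Ppp1r12c. Ppp1r12c on chromosome 7 had a CTD-ind site (4502054 to 4502353) inside the gene, 523 bp before a listed start. Ppp1r12b, of 201.0 kb, had a YmA-ind site inside, and the YmA-ind site of Ppp1r12a, the gene of MYPT1, was the one 72.3 kb upstream. Ppp1r16b, which encodes a related membrane-associated subunit, had 5 sites on chromosome 2. A CTD-ind site lay 58 bp before a listed start (158666928 to 158667227), at the motif shown above. The other four were YmA-ind: 1 was 10.5 kb upstream (158656111 to 158656410), and 3 were inside at 52.5, 67.0 and 67.8% of the length of the gene (158718852 to 158719151, 158733304 to 158733603 and 158734098 to 158734397). Ppp1r16a, its paralog, was assigned none, but a CTD-ind site inside Foxh1 was centred 91 bp from it (chromosome 15, 76671403 to 76671702).

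Among genes of nuclear PP1 partners and inhibitors, Ppp1r8 had a CTD-ind site 78 bp before a listed start (chromosome 4, 132843098 to 132843397). Ppp1r11, the gene of inhibitor-3, had a YmA-ind site 127 bp after its start (chromosome 17, 36951516 to 36951815). Ppp1r7, Ppp1r2 and Ppp1r10, which encode SDS22, inhibitor-2 and PNUTS, had none. The nearest sites were 46.2, 19.3 and 50.0 kb away, and the last of these was a site of Ppp1r18. The 5 genes of the Ppp1r14 stem, which holds the myosin phosphatase inhibitor CPI-17 (Ppp1r14a), had none. The shares at like span were low for most of them, from 8% (Ppp1r14b and Ppp1r14d) to 31% (Ppp1r14c), and 5 genes are few.

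Genes of cytoskeletal and signalling partners of PP1 had sites at varied places. Ppp1r18 had 2 close together on chromosome 17. A CTD-ind site (35865708 to 35866007) was 264 bp inside the gene, and a YmA-ind site (35866365 to 35866664) lay 101 bp before another listed start. The neighbouring gene Nrm was 457 bp from the first. Ppp1r9b, which encodes spinophilin, had a YmA-ind site 5.18 kb upstream, while its paralog Ppp1r9a had its nearest site 1420 kb away. Ppp1r1b, the gene of DARPP-32, had a CTD-ind site inside, 1.78 kb from the nearer end of the gene. Ppp1r13b, the gene of ASPP1, had a YmA-dep site 24.6 kb upstream, which was 28.6 kb from the gene Atp5mpl. A CTD-ind site assigned to Xrcc3 was nearer to Ppp1r13b, at 14.4 kb. Ppp1r13l, the gene of iASPP, was assigned none. Ppp1r21 had 2 YmA-ind sites, both inside. Ppp1r32 had 2 YmA-ind sites, 1 of them inside.

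Of the 7 genes of the Ppp1r3 stem, which encode glycogen-targeting subunits, Ppp1r3b and Ppp1r3g had a site. The shares at like span ran from 3% (Ppp1r3e) to 24% (Ppp1r3b). The site of Ppp1r3b was CTD-ind and inside, 1.07 kb from the nearer end of the gene (chromosome 8, 35376611 to 35376910). That of Ppp1r3g was YmA-ind, 4.02 kb downstream and only slightly nearer to it than to Lyrm4, 4.39 kb away. Of the genes for the subunits that direct PP1 to the translation factor eIF2 alpha, Ppp1r15b, the constitutive form, had a CTD-ind site inside (chromosome 1, 133135903 to 133136202). Ppp1r15a, the stress-induced form, had none, with the nearest 29.1 kb away.

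PP2A regulatory genes had sites at 3 of 14 members (21.4%, against 26.6% at like span). Ppp2r5a, the gene of B56 alpha, had 3 sites on chromosome 1, all upstream. A YmA-ind site (191397494 to 191397793) was 602 bp before the start, a YmA-ind site (191435525 to 191435824) 38.6 kb and a CTD-ind site (191458376 to 191458675) 61.5 kb before it. Ppp2r5b had a YmA-ind site inside, at 91.3% of its length and 738 bp from the neighbouring gene Gpha2. The scaffold gene Ppp2r1a had a YmA-ind site 298 bp before its start (chromosome 17, 20945007 to 20945306). Ppp2r5c, Ppp2r5d and Ppp2r5e, the scaffold gene Ppp2r1b, the B55 genes Ppp2r2a, Ppp2r2b, Ppp2r2c and Ppp2r2d, and Ppp2r3a, Ppp2r3c and Ppp2r3d had none. One of these, Ppp2r2b, is the longest member at 414.0 kb, and its nearest site was 722.0 kb away. Of the PP4 regulatory genes, Ppp4r1 had a YmA-ind site inside and Ppp4r2 a YmA-dep site 8.93 kb upstream, 2 of 5 genes (40.0%, against 28.8% at like span). Of the PP6 regulatory genes, Ppp6r3 had a YmA-ind site inside, at 96.7% of its length, 1 of 3 genes (33.3%, against 29.0%).

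The 51 members without a site ranged widely in their distance to EBF1. The nearest site was a median of 71.1 kb away, 5 had a site within 10 kb that lay inside another gene, and 20 had none within 100 kb. The 5 were Ppp1ca, Ppp1r16a, Ppp1r13l, Ppp1r37 and Ppp6r1. At the far end stood Ppp1r3a, which encodes the muscle glycogen-targeting subunit, with its nearest site 2810 kb away, and Ppp1r9a and Ppp2r5e at 1420 kb each. The remaining members without a site, not named above, were Ppp1r1a, Ppp1r1c, Ppp1r3c, Ppp1r3d, Ppp1r3f, Ppp1r14bl, Ppp1r17, Ppp1r26, Ppp1r27, Ppp1r35, Ppp1r36, Ppp1r42, Ppp4r3a, Ppp4r3b, Ppp4r4 and Ppp6r2.

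**Figure D3:**
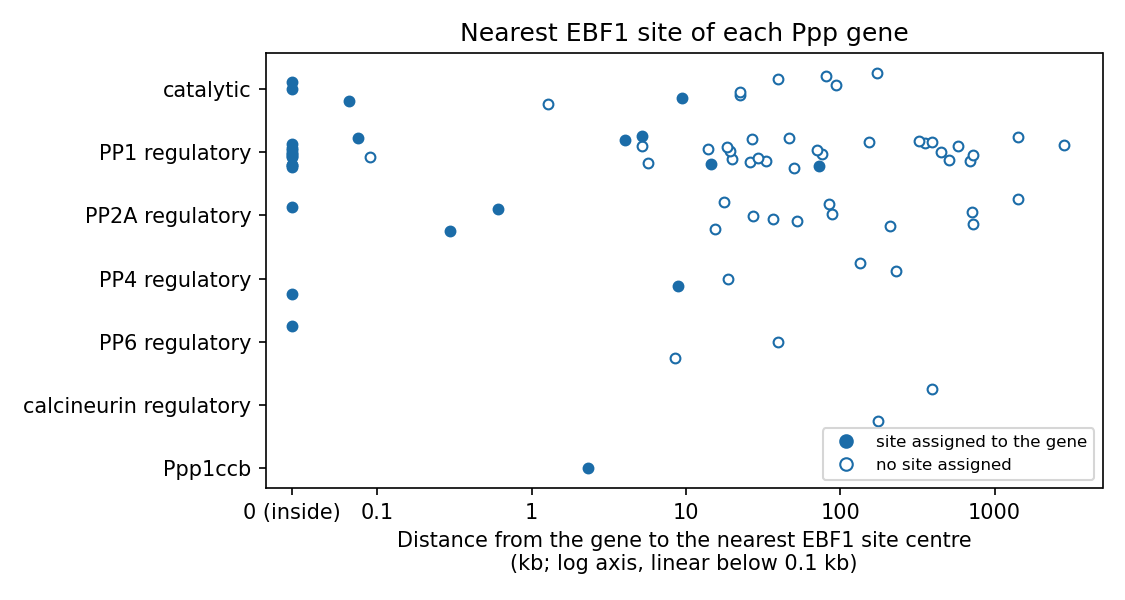
Distance in kb from each Ppp gene to the nearest EBF1 site centre, by role, on a log axis; filled points are members with an assigned site and open points the 51 without. Open points reach from 0.091 kb (Ppp1r16a) to 2810 kb (Ppp1r3a).

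Members with and without a site had like spans: the median span was 21.4 kb with and 23.3 kb without a site. Among all coding genes the share with a site rose with span, from 7.66% in the shortest through 16.7 and 22.4% to 32.4% in the longest of 4 equal groups by span. In these groups 2 of 14, 9 of 16, 6 of 25 and 9 of 22 Ppp genes had a site. The second group, genes of 5.88 to 17.4 kb, thus had the highest share of members. Inside the genes, the family had 5.57 sites per Mb of gene span, against 4.10 over all coding genes.

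**Figure D4:**
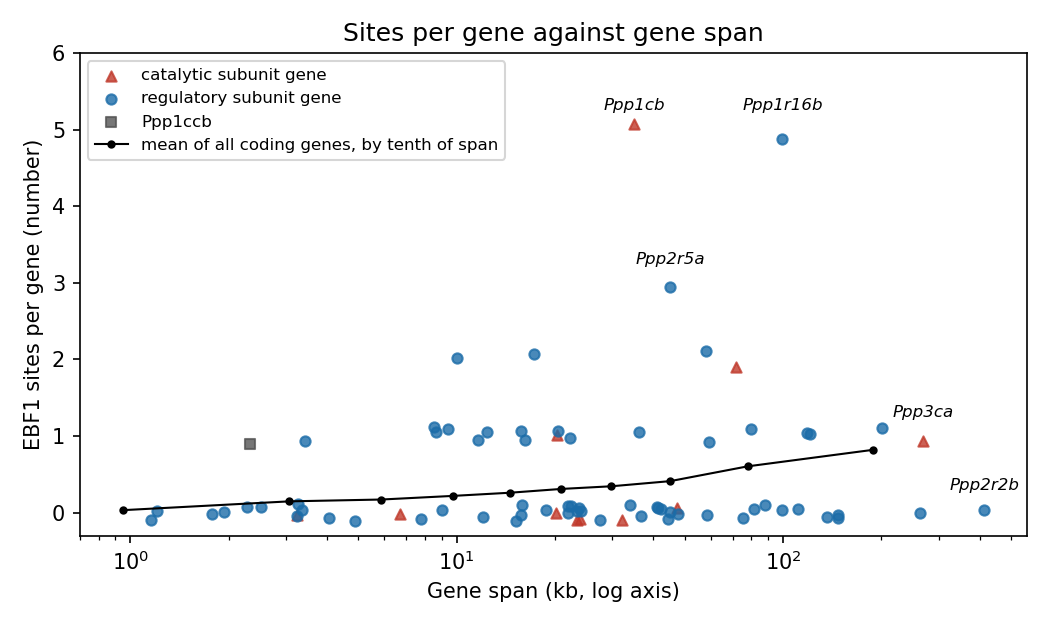
EBF1 sites per gene against gene span (kb, log axis) for the 77 Ppp genes, with small vertical offsets so that points do not hide each other; the black line joins the mean number of sites of all coding genes in each of 10 groups by span. Ppp1cb and Ppp1r16b, with 5 sites each, and Ppp2r5a, with 3, lie above the line, and Ppp2r2b, the longest member, has 0.

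By class, 25 of the 40 sites were YmA-ind (62.5%, exact 95% binomial interval 45.8 to 77.3%), 11 CTD-ind (27.5%, 14.6 to 43.9%) and 4 YmA-dep (10.0%, 2.79 to 23.7%). Over all sites the shares were 54.1, 34 and 11.9%, each inside the interval of the family. A difference in class was not tested. The intervals cover counting error only and take sites as independent, though 12 of the 40 stood in runs of neighbouring sites. The 4 YmA-dep sites were at Ppp3cc, Ppp1ccb, Ppp1r13b and Ppp4r2, each with 1. Catalytic genes had 3 CTD-ind, 5 YmA-ind and 1 YmA-dep sites, and regulatory genes 8, 20 and 2.

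By position, 21 of the 40 sites (52.5%) were inside the gene, against 60.0% over all assigned sites. Exons and introns were not separated here. Of the 19 outside, 14 were upstream and 5 downstream (73.7% upstream, against 61.5% over all assigned sites of genes with a listed strand). Of the 33 sites at members with a listed start, 9 (27.3%, 13.3 to 45.5%) were within 1 kb of it, against 16.8% over all assigned sites. Within 2.5 kb the shares were nearer to each other (27.3 against 23.2%), and likewise within 5 kb (33.3 against 30.0%), and the background shares lay inside the intervals of the family at all 3 distances. The 9 sites within 1 kb belonged to 8 of 61 members (13.1%), Ppp1cb, Ppp1r8, Ppp1r11, Ppp1r12c, Ppp1r16b, Ppp1r18, Ppp2r1a and Ppp2r5a, while 5.73% of coding genes with a listed start had such a site. Of these 9 sites 5 were CTD-ind and 4 YmA-ind. Counted elsewhere inside the genes were 3 CTD-ind, 12 YmA-ind and 1 YmA-dep sites. These 3 CTD-ind sites, at Ppp1r15b, Ppp1r3b and Ppp1r1b, were all at members without a listed start, so their distance to a start is unknown. So were the YmA-ind sites of Ppp3ca, Ppp3cc and Ppp4r1 and the YmA-dep site of Ppp3cc. At members with a listed start, 5 of 8 CTD-ind and 4 of 22 YmA-ind sites were within 1 kb of it. The same order by class was present over all assigned sites, where 32.6% of CTD-ind, 9.26% of YmA-ind and 2.91% of YmA-dep sites were within 1 kb of a start. In runs of neighbouring sites, joined over gaps shorter than the stitching distance often used to call super-enhancers, stood 12 of the 40 sites (30.0%), against 37.9% over all assigned sites.

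**Figure D5:**
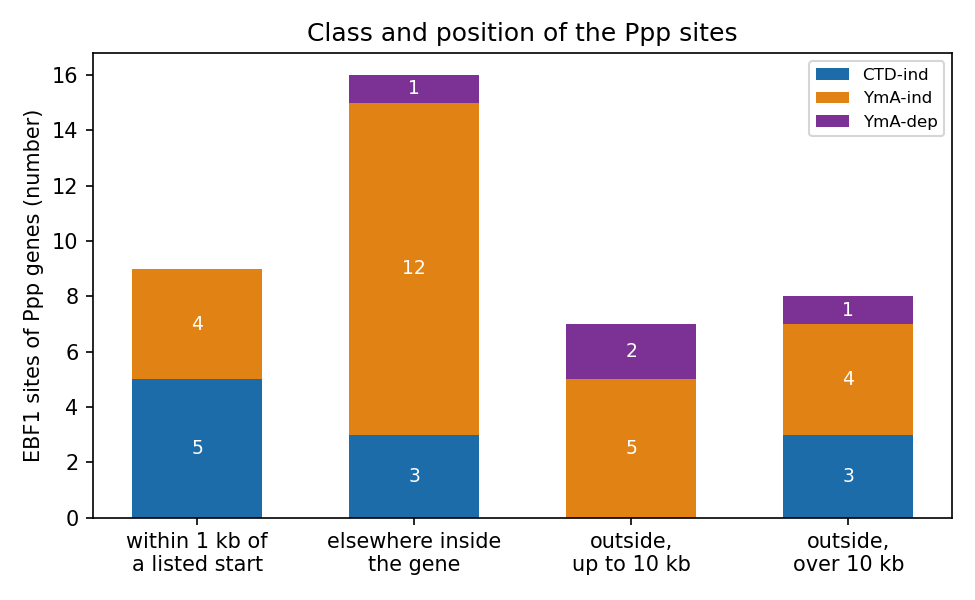
Number of EBF1 sites of the Ppp genes by position (bars) and class (colours); genes without a listed start can enter only the other 3 bars. CTD-ind sites make up 5 of the 9 within 1 kb of a listed start and 3 of the 16 elsewhere inside the genes. These 3 are at genes without a listed start.

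Genes that act with the family but carry other symbols were counted from 5 lists. Of 21 other serine/threonine phosphatase genes, 7 had a site (33.3%, against 24.8% of coding genes of like span), with 3 sites at Phlpp1, whose product dephosphorylates AKT, and 2 at Ppm1h. Of 15 calcineurin pathway genes, 5 had a site (33.3%, against 23.3%). The NFAT genes Nfatc1 and Nfatc2 had 5 sites each, 4 YmA-ind and 1 CTD-ind in both, and Cabin1, the gene of a calcineurin inhibitor, had 3 YmA-ind sites, all inside. Of the 5 sites at Nfatc1, 2 were inside the gene, and at Nfatc2 none. Of 17 genes of PP1 interactors, 7 had a site (41.2%, against 25.9%), with 5 at Elfn1, 3 at Csrnp1 and 2 at Elfn2. Of 9 matched genes of STRIPAK, a complex that holds PP2A, 3 had a site (33.3%, against 24.9%), among them the striatin gene Strn4 with 3 sites. That count leaves out Cttnbp2 and Cttnbp2nl, which were misspelt in the list and have no site. With them, as an alternative chosen after seeing the data, 3 of 11 STRIPAK genes had a site (27.3%, against 26.8% at like span). Of 13 matched genes of PP2A modulators, 3 had a site (23.1%, against 22.5%): Anp32e and Ptpa with 2 each, and Sgo1 with 1. Both sites of Ptpa, which encodes the PP2A activator, were CTD-ind and inside the gene.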

How the data were processed

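The deposited file, made by the authors from an EBF1 ChIP-seq library with wild-type EBF1, lists site positions in bp and a text class per site. Bowtie2, SAMtools, deepTools and GRCm38 (mm10) are named in the submitters' processing notes. The peak caller, its threshold, the step that set all sites to 300 bp and the classing could not be found in the sources used here. Each group of the series holds 1 library, and the other 4 were not analysed here.

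RefSeq genes of GRCm38.p6 on chromosomes 1 to 19 and X were kept (49209, 21521 coding). Genes listed under a chromosome but lying on scaffolds were left out, as were Y, mitochondrial and unplaced genes. Strand and starts came from the RefSeq promoter windows. Positions are 1-based. Like span means the 100 non-Ppp coding genes nearest in rank of span, pooled over members and counted with repeats. Intervals are exact (Clopper-Pearson) 95% binomial intervals. No test was run, since there is 1 library and members, lists and motifs were chosen with earlier results of these data known. Of the fixed lists, 75 of 78 genes matched, and 2 of the others were misspelt. Named genes were all catalytic genes, all members with a site, members without one by role, and up to 3 genes per other list, of which 1 is not reported here. The site assignment was checked on planted sites. Python 3.11.15, pandas 2.3.3, NumPy 2.4.6 and SciPy 1.17.1 were used. Sites lying in runs were joined by the gap between their centres. Distance limit, holding gene, flank, whole interval, runs, span matching, the distance to a start and motif length were varied.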

Additional observations from a re-analysis of the deposited data

How the results depend on the processing

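The number of Ppp genes with a site was 24 to 29 and the number of their sites 33 to 41 over 6 other assignments: a limit of 20 kb, no limit, a flank of 10 kb whatever gene is nearer, the shortest holding gene only, whole intervals, and 1 site per run. Over these assignments the share stayed 11.4 to 13.7 percentage points above that of genes of like span (12.3 in the report). Class shares stayed within their intervals. With the 20 genes nearest in span as the background, the gap was 10.6 points. With the limit of 20 kb, members with 3 or more sites fell from 3 to 1, since Ppp1cb went from 5 sites to 2 and Ppp2r5a from 3 to 1, and Ppp1r12a and Ppp1r13b lost their site. The share of coding genes with a site was then 18.1% (19.8% at like span). It was 22.3% (24%) with the flank of 10 kb and 19.2% of all coding genes with 1 site per run. The share at like span was 23.1% with the 20 genes nearest in span and 20.2% with genes matched on the chromosome length assigned to them. With the longer motif, 1 in place of 2 Ppp windows with a site centre held a match. For catalytic genes and members with a site, 198 values of the site count were compared. Of these, 14 differed from the reported count by over 1.5 times or went to or from 0. With 1 site per run, Ppp1r16b and Ppp1cb each had 3 sites in place of 5, and Ppp1r18 and Ppp1r32 each 1 in place of 2. With the flank of 10 kb, Ppp1ca went from 0 to 3 sites and Ppp1r1b from 1 to 2. Outside this comparison, Ppp1r16a, Ppp1r13l, Ppp1r37 and Ppp6r1 each went from 0 to 1 site with the flank of 10 kb. No paired analysis was possible because each group has 1 library. A stricter peak threshold was not run for want of a score. Read depth is unknown, and 26 genes and 40 sites leave wide intervals on every share.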

Other observations

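Over the promoter windows of all coding genes, windows with a CTD-ind site centre held the core motif CCCNNGGG in 61.4% of 285 cases and its longer form in 19.6%. Windows with a YmA-ind site centre held them in 43.8 and 4.49% of 89 cases. The mirrored letters GGGNNCCC were in 20 and 18% of these windows, and the median content of G and C was 63.7 and 57.7%. Of the 5 windows with a YmA-dep site centre, 4 held the core and 0 the longer form. The part of base composition in these shares was not tested.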
